A study of Homo sapiens and Mus musculus with 22 samples.

Results

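The 34 genes described here belong to the amino acid arm of the ATF4 response and were chosen by name, as the rows of 34 listed symbols in 3 count tables of small cell lung carcinoma (SCLC) lines. All 34 were listed in each table, among 25435 genes for H69 and H69M, 20113 for H69EZ and 24047 for the mouse lines. Every member passed the filter on low counts in both human tables, where 15445 and 14819 genes were tested. Among the 14032 mouse genes tested were 33 members, and Inhbe, with 0 to 0.208 CPM in a library, did not pass. The list was drawn up with the difference between the PD-L1 low fraction of H69M and unsorted H69M in view. Every comparison that has any of those 6 libraries on either side is therefore given as a description, with no test.

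ATF4 is a transcription factor whose messenger RNA is translated better when the initiation factor eIF2 is phosphorylated. The kinases that phosphorylate eIF2 respond to missing amino acids (GCN2), to misfolded protein in the endoplasmic reticulum (PERK), to double-stranded RNA (PKR) and to heme shortage or mitochondrial stress (HRI). ATF4 binds composite C/EBP-ATF elements, often with a C/EBP partner, and turns on genes that make, import and spare amino acids, together with genes that feed back on the response.

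The study asked how SCLC cells with high MHC class I differ from related cells with little of it. Its 22 libraries, made by exome capture from 250 ng of total RNA, fall into 8 groups. The human line H69 carries the label low or negative for MHC class I (n = 3). H69M was derived from it and is labelled high when unsorted (n = 3). Cells of H69M were also sorted for PD-L1, into a PD-L1 low or negative fraction, which is also low or negative in MHC class I by its label, and a PD-L1 high fraction with the label high (n = 3 each). H69EZ arose from H69 cells that met an EZH2 inhibitor for 6 days, were then cultured without it and were selected for adherent growth. It was sorted by HLA-ABC, the class I molecules themselves, into a low or negative and a high fraction (n = 2 each). RPP is a mouse SCLC line labelled low or negative, and RPP-A, labelled high, was selected from it for adherent growth (n = 3 each). Each derived line is thus 1 line, and each sort compares fractions of 1 line.

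Total counts were 12814594 to 26834561 per library in the table of H69 and H69M, 40568796 to 52458228 in that of H69EZ and 10817795 to 19973785 in the mouse table. The sorted protein's own gene, CD274 (PD-L1), was at 13.3 CPM (the TMM-normalised count of a gene relative to library size) in the PD-L1 high, 0.265 in the PD-L1 low and 4.02 in the unsorted H69M libraries. TAP1, the peptide transporter of the MHC class I pathway, was at 176, 4.58 and 43.3 CPM in the same order. B2M, the light chain of MHC class I, was at 802 CPM in HLA high and 155 CPM in HLA low cells, and B2m at 2071 CPM in RPP-A and 68.3 CPM in RPP. The 12 neuroendocrine markers were present in H69, with a sum of 4392 to 4759 CPM. All 12 non-neuroendocrine markers, VIM and CAV1 among them, were higher in HLA high than in HLA low cells, and 11 of the 11 tested were higher in RPP-A than in RPP. CD3E and CD3D had no read in any human group, and the 8 leukocyte markers summed to at most 9.13 CPM there. The mouse columns EHK_RPP4 (RPP) and RPPM3 (RPP-A) stood apart from the other libraries of their groups. The chi-square divided by its degrees of freedom was 28.1 to 37.2 for their pairs and 1.33 to 10.5 for all other replicate pairs. The lowest value, 1.33, was that of RPPM1 and RPPM2. The labels leave unsaid whether replicates came from different cultures, and p-values cover the spread of these libraries alone, technical or otherwise.

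Promoter windows of 26 members were found in the RefSeq table of build GRCh38.p14, each reaching from 250 bases before a transcription start to 50 bases after it. They were searched on both strands for TGATGNAA, a form of the C/EBP-ATF element to which ATF4 binds. It occurred in 7 of the 26 members and in 7 of their 40 windows, against 1270 of all 35116 windows (3.62%). The stricter TGATGCAA, a subset of the same matches, was present in 3 members and in 0.866% of all windows. Sequences of the 5 members with a match upstream of the start are shown so that the match can be seen in its place; they were not chosen by how far the genes differed. The match is in capitals, and each run is the gene's own strand, 5′ to 3′. The ATF3 stretch lies at chr1:212565171-212565268 (plus strand), that of ASNS at chr7:97872424-97872521 (minus strand) and that of CHAC1 at chr15:40953221-40953314 (plus strand). The CEBPG stretch lies at chr19:33374060-33374089 and that of FGF21 at chr19:48755425-48755522, both on the plus strand. The CEBPG stretch is shorter because it lies before the start of its window but after an earlier start of the gene.
ATF3: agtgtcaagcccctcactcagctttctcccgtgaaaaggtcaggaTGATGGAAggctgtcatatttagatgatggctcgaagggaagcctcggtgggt
ASNS: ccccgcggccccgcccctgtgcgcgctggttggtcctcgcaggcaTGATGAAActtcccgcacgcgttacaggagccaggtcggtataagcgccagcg
CHAC1: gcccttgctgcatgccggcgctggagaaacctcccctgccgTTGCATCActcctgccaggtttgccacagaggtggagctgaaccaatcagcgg
CEBPG: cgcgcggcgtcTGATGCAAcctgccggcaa
FGF21: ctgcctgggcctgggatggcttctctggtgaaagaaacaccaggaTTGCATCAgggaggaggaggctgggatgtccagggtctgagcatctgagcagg
In ATF3, ASNS and CEBPG the match reads in the direction of the gene, and in CHAC1 and FGF21 it is the reverse complement. Its first base lies 191 bases before the start in ATF3, 68 in ASNS, 209 in CHAC1, 42 in CEBPG and 54 in FGF21. SLC3A2 and SLC7A1 carry their match after the start. A match describes letters only, and the files hold no measurement of ATF4 binding.

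PD-L1 low cells of H69M held more RNA of nearly all members than the unsorted culture. Of the 34 members, 30 were at least 2-fold higher with 3 libraries that all lay above the 3 of unsorted H69M, and none was 2-fold lower. Among all genes tested, 8.46% were higher and 7.94% lower by the same measure. The list was chosen on this contrast, so nothing is read from that difference. The median log2 fold change of the members was 1.66, with a range from -0.16 to 6.18, against 0.01 over all genes. SLC7A1 (0.62 ± 0.05) and PSPH (0.90 ± 0.07) were higher by less than 2-fold, ALDH18A1 (-0.16 ± 0.06) was slightly lower, and only CTH (-0.15 ± 0.12) had overlapping libraries. In bulk RNA a larger share of cells with the response and more RNA per cell cannot be told apart. The PD-L1 low cells were sorted and the unsorted cells were not. An effect of sorting or handling thus cannot be told apart from a difference between the cells in this contrast.

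**Figure D1:**
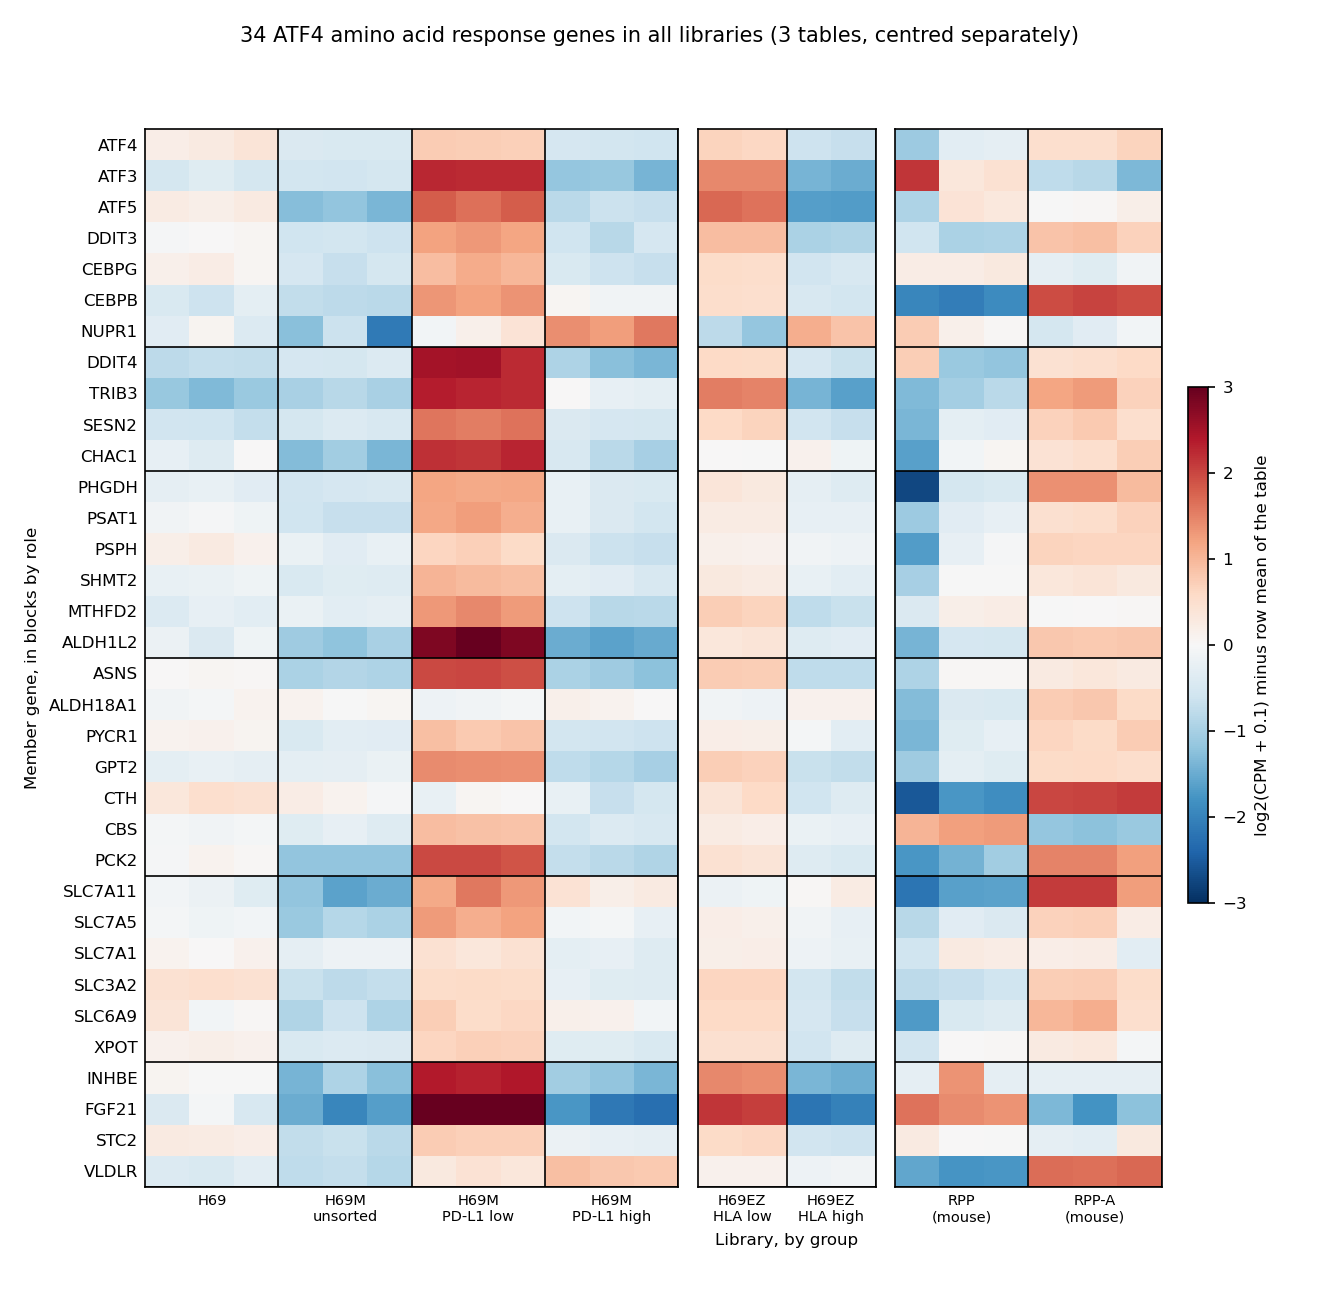
Heat map of the 34 members (rows, in blocks by role) in the 22 libraries (columns, by group), as log2(CPM + 0.1) minus the row mean of each table, with colours limited to the range from -3 to 3. The 3 PD-L1 low columns of H69M are red in most rows where the unsorted and PD-L1 high columns are blue, the HLA low columns of H69EZ are redder than the HLA high ones, and most mouse rows run the other way, from blue in RPP to red in RPP-A.

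The stress transcription factors come first. ATF4 itself was at 449, 438 and 432 CPM in the PD-L1 low libraries against 195, 191 and 191 CPM in unsorted H69M, a log2 fold change of 1.19 ± 0.05. The PD-L1 high libraries, at 185, 180.1 and 174 CPM, lay just below the unsorted ones, and H69, at 301, 318 and 344 CPM, lay between these and the PD-L1 low fraction. The PD-L1 low fraction was thus the highest of the 4 groups, and no ATF4 library of it overlapped another group. ATF4 has copies named as pseudogenes in the annotation, so its counts carry that uncertainty.

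ATF3, an ATF4 target that also represses transcription, was at 110.2, 108 and 109 CPM in PD-L1 low cells and at 15.6, 15.4 and 15.8 CPM in unsorted H69M. H69, at 15.8 to 17.6 CPM, was close to unsorted H69M, and the PD-L1 high libraries were the lowest at 8.65 to 10.4 CPM. ATF5, a close relative of ATF4, was at 243, 217 and 242 CPM in the PD-L1 low libraries and at 26.3 to 29.9 CPM in the unsorted ones. Against H69, the group next in order for both genes, the PD-L1 low fraction was 6.62-fold higher in ATF3 and 2.93-fold higher in ATF5. ATF5 overlaps IL4I1 and NUP62, and the counting of shared reads is not given in the sources used here.

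DDIT3 (CHOP), which links a lasting stress response to cell death, was at 93.1 to 101 CPM in PD-L1 low cells, 26.4 to 28.0 CPM in unsorted H69M, 23.1 to 28.6 CPM in PD-L1 high cells and 39.9 to 42.5 CPM in H69. It overlaps MARS1. The C/EBP partners CEBPG and CEBPB were 2.99-fold and 4.23-fold higher in PD-L1 low than in unsorted cells. NUPR1, a small stress-induced chromatin protein, did not share this order. Its PD-L1 high libraries were the highest of the table, at 2.79, 2.51 and 3.17 CPM, above the PD-L1 low ones at 0.931, 1.12 and 1.37 CPM, and unsorted H69M held 24 NUPR1 counts in all.

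The next genes feed back on growth and on the response itself. DDIT4, an inhibitor of mTORC1, was at 1068, 1075 and 898 CPM in PD-L1 low libraries and at 131 to 142 CPM in unsorted H69M. TRIB3, a pseudokinase that restrains ATF4 and AKT signalling, was at 301, 285 and 278 CPM against 29.6 to 32.7 CPM. CHAC1, which breaks down glutathione, was at 60.5, 58.4 and 64.6 CPM against 4.97 to 6.27 CPM. SESN2, a leucine sensor that also restrains mTORC1, was 4.19-fold higher. In this group of 4 the median log2 fold change was 3.07, and each gene's 3 PD-L1 low libraries lay above every other library of the table.

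The enzymes of serine synthesis and of the one-carbon unit that serine supplies to mitochondria were also higher. PHGDH, PSAT1 and PSPH, the steps from a glycolytic intermediate to serine, were 3.21-fold, 3.54-fold and 1.87-fold higher in PD-L1 low than in unsorted cells. PSAT1 was at 526, 558 and 500.5 CPM against 155, 146 and 146 CPM, with H69 between them at 215 to 229.8 CPM. SHMT2 and MTHFD2, which take the carbon through mitochondrial folate, were 2.55-fold and 3.04-fold higher. ALDH1L2, the mitochondrial enzyme that releases it as carbon dioxide while making NADPH, was at 38.3, 43.4 and 38.5 CPM against 2.29 to 2.68 CPM, a 15.9-fold difference. ALDH1L2 was thus the farthest apart of this role. PSAT1, PSPH and MTHFD2 have named pseudogene copies, and MTHFD2 also overlaps SLC4A5.

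Among the other metabolic enzymes, ASNS, which makes asparagine from aspartate and glutamine, was at 818, 827 and 791 CPM in PD-L1 low libraries. It was at 107, 113 and 109 CPM in unsorted H69M, at 88.7 to 108 CPM in PD-L1 high cells and at 208 to 216 CPM in H69. PCK2, the mitochondrial phosphoenolpyruvate carboxykinase, was 8.84-fold higher in PD-L1 low than in unsorted cells, and GPT2, the mitochondrial alanine aminotransferase, was 3.13-fold higher. In proline synthesis the 2 members differed from each other: PYCR1, the last step, was 2.32-fold higher, while ALDH18A1, the first, was at 102 to 108 CPM against 113 to 121 CPM. In the route from homocysteine to cysteine, CBS was 2.34-fold higher, while CTH was at 5.45 to 6.65 CPM against 6.27 to 7.42 CPM. PCK2 overlaps NRL and ASNS has several named pseudogenes, so their levels are uncertain to that degree.

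The transporters carry amino acids across the cell membrane. SLC7A11, the cystine importer, was at 82.6, 111 and 92.1 CPM in PD-L1 low cells and at 16.5, 12.1 and 13.2 CPM in unsorted H69M. SLC7A5, the large neutral amino acid transporter, was at 715, 621 and 679 CPM against 135, 163 and 152 CPM, and its partner chain SLC3A2 was at 289 to 295 CPM against 115 to 125 CPM. The glycine transporter SLC6A9 (2.80-fold) and the tRNA exporter XPOT (2.17-fold) were higher as well. The arginine and lysine transporter SLC7A1 was 1.53-fold higher. In H69, SLC3A2 at 271 to 281 CPM was nearly as high as in PD-L1 low cells.

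Of the secreted members, FGF21, a stress hormone, differed most. It was at 20.7, 18.6 and 19.0 CPM in PD-L1 low libraries against 0.315, 0.199 and 0.268 CPM in unsorted H69M, a log2 fold change of 6.18 ± 0.17. The unsorted value rests on 18 counts over its 3 libraries and the PD-L1 high value on 10 counts. INHBE, an activin subunit, was at 155, 148 and 156 CPM against 11.1, 15.5 and 12.4 CPM, and STC2, a secreted glycoprotein of the stress response, was 2.79-fold higher. VLDLR, a lipoprotein receptor, was 2.20-fold higher, yet its highest libraries were those of the PD-L1 high fraction, at 59.7 to 65.3 CPM against 42.3 to 46.6 CPM in the PD-L1 low one.

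**Figure D2:**
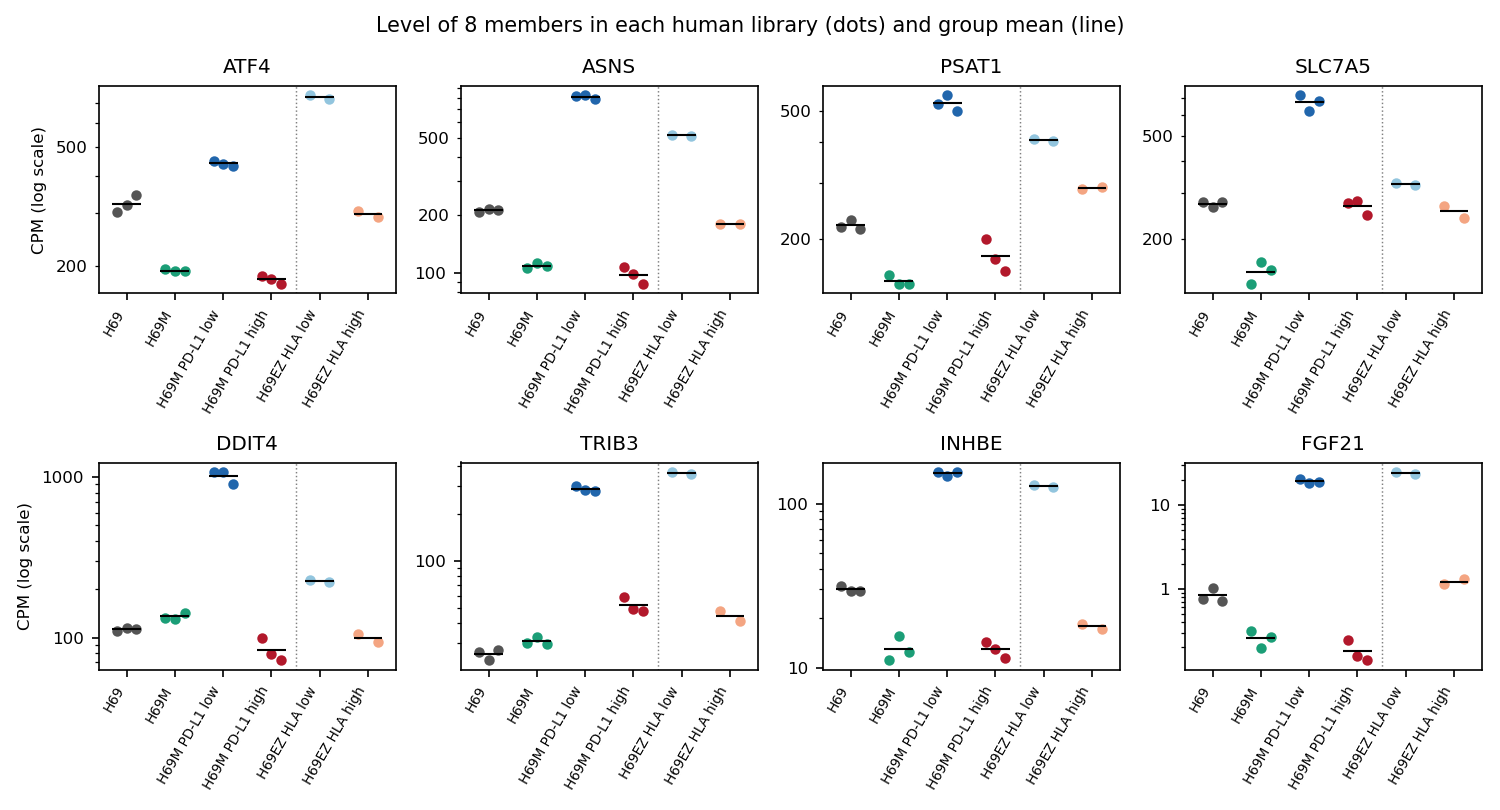
Level in CPM (log axis) of ATF4, ASNS, PSAT1, SLC7A5, DDIT4, TRIB3, INHBE and FGF21 in each human library (dots) with the mean of its group (line), the dotted line separating the 2 tables, which were normalised separately. In each of the 8 panels the PD-L1 low fraction is the highest of the H69 and H69M groups and the HLA low fraction lies above the HLA high one; FGF21 runs from 0.141 to 20.7 CPM in the first table.

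Set against the PD-L1 high fraction instead of the unsorted culture, 26 members were at least 2-fold lower in PD-L1 high cells with libraries apart, and NUPR1 was higher (all genes: 16.9% lower, 16.2% higher). The median was -1.47. Both contrasts share the PD-L1 low libraries. Set against the parent H69, PD-L1 low cells had 20 members at least 2-fold higher and none lower (all genes: 16.7% and 8.42%), with a median of 1.27. TRIB3 (11.3-fold), SESN2 (4.63-fold), ALDH1L2 (8.95-fold) and FGF21 (22.5-fold) were among them, DDIT4 differed by 3.17 ± 0.09 on the log2 scale, and ATF4 itself was 1.37-fold higher and SLC3A2 1.06-fold higher.

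Unsorted H69M is the culture from which both fractions came, and its place beside them is a description that uses the libraries behind the choice of members. PD-L1 high against unsorted cells, SLC7A11, NUPR1 and VLDLR were at least 2-fold higher and none was lower (all genes: 15.0% and 8.47%), with a median log2 fold change of 0.02. For 16 members the mean of unsorted H69M lay below both fractions, for 17 between them and for CTH above both. It lay a median of 99.6% of the way from PD-L1 low to PD-L1 high over 27 members (range -45.8 to 165%). These were the members with fractions at least 2-fold apart and libraries that did not overlap. By the same measure the median was 36.8% for 10 neuroendocrine and 24.3% for 12 non-neuroendocrine markers. The members were chosen on a contrast that enters this measure, and the difference was not tested.

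Other values moved with the members between PD-L1 low and unsorted libraries. The 12 neuroendocrine markers summed to 5721 to 6008 CPM in PD-L1 low against 4186 to 4352 CPM in unsorted cells, and the 12 non-neuroendocrine markers to 83.4 to 136 against 1514 to 1551 CPM, none of either list being without a read in these groups. The 6 fibroblast markers summed to 242 to 339 against 2485 to 2775 CPM. The 6 endothelial markers summed to 12.3 to 13.2 against 20.3 to 22.8 CPM and the 8 leukocyte markers to 1.77 to 2.53 against 3.63 to 4.36 CPM. Of the fibroblast markers 4 were at least 2-fold lower in PD-L1 low cells and 2 higher, with libraries apart (all genes: 7.94% and 8.46%). COL1A1 (49.5 against 1270.5 CPM) and COL1A2 (205 against 1269 CPM) were among those lower. Of 5 endothelial markers tested, 3 had libraries wholly below those of unsorted cells and 1 wholly above. Of these, 2 were at least 2-fold lower and none was 2-fold higher. The 10 heat shock genes summed to 4709 to 4762 CPM against 10230.3 to 10480.0 CPM, and the 12 immediate early genes to 516 to 560.2 against 459 to 475 CPM. In PD-L1 high cells, which were sorted too, the heat shock sum was 7320.4 to 7577 CPM and the immediate early sum 456 to 462 CPM. The part of these lists in the members' values was not tested.

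The remaining genes of the pathway were taken from lists that were set without regard to their direction, though with earlier results known. Past 2-fold with libraries apart, 8.46% of all genes were higher and 7.94% lower in PD-L1 low than in unsorted cells. Of 20 aminoacyl-tRNA synthetases, which load tRNAs and include known ATF4 targets, 6 were at least 2-fold higher in PD-L1 low than in unsorted cells and none was lower, with a median of 0.59. The 4 with the highest mean CPM, IARS, NARS, TARS and EPRS, differed by 0.68, 0.91, 0.75 and 0.51. Of 19 other ATF4 targets tested, 7 were higher and 2 lower (median 0.67): SLC38A2, LONP1 and GRB10 were 0.46, 0.45 and 0.99 higher, and SQSTM1 stood at -0.65, on the log2 scale. The 10 kinases, phosphatase subunits and other regulators of eIF2 had none past 2-fold (median 0.03). With no minimum fold, 4 had libraries that lay wholly above those of unsorted cells and 4 wholly below. The share of all genes by that looser measure was not counted, so nothing is read from it. EIF2AK1, the gene of HRI, differed by 0.18 ± 0.06, EIF2S1, the eIF2 subunit that is phosphorylated, by -0.02 ± 0.05, GCN1L1, a partner of GCN2, by -0.45 ± 0.06 and PPP1R15B, a phosphatase subunit that reverses eIF2 phosphorylation, by 0.79 ± 0.05. The values farthest from 0, named after they were seen, were those of EIF2AK4, the gene of GCN2 itself, at -0.91 ± 0.06 and of the other phosphatase subunit, PPP1R15A, at 0.94 ± 0.06.

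Lists of neighbouring stress pathways are given for the same 6 libraries (all genes past 2-fold with libraries apart: 8.46% higher, 7.94% lower). Because the members were chosen on this contrast, no order between their median and those of these lists is read. The 20 targets of XBP1 and ATF6, the other branches of the endoplasmic reticulum response, had a median of -0.54, with 3 lower and 1 higher past 2-fold. The 4 with the highest mean CPM, the chaperones HSP90B1, CANX, CALR and HSPA5 (BiP), had log2 fold changes of -0.43, -0.55, -1.20 and -1.23. The 10 heat shock genes had a median of -0.84, the 12 NRF2 targets of -0.31, the 11 other folate and serine genes tested of 0.02 and the 11 immediate early genes tested of 0.22. The 12 hypoxia genes had a median of 1.36, with 8 higher and 1 lower past 2-fold. VEGFA and NDRG1 were higher by 2.10 ± 0.07 and 2.27 ± 0.08, while KDM3A differed by 0.18 ± 0.06 and SLC2A1 by -0.47. These medians are descriptions of the same 6 libraries.

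**Figure D3:**
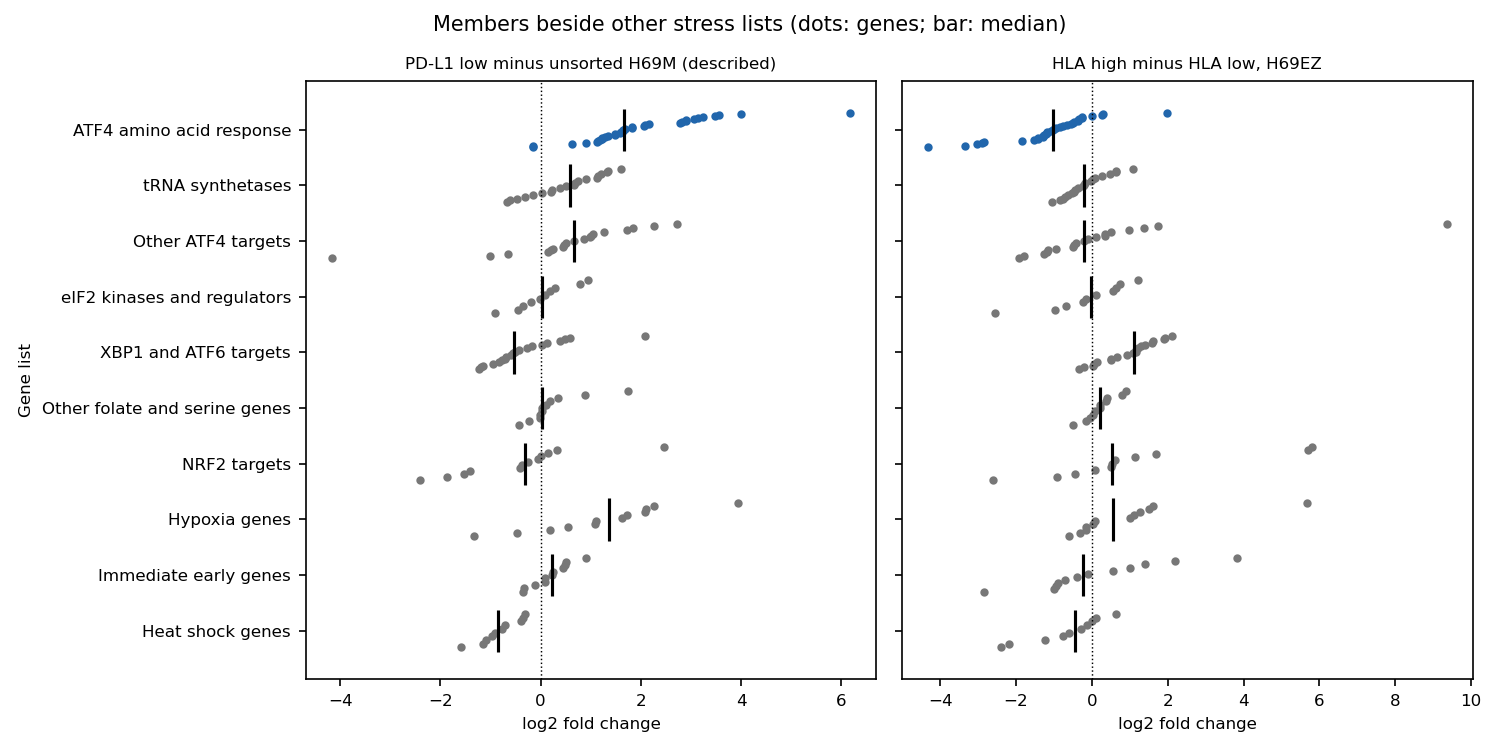
Log2 fold change of each gene (dots) with the median of its list (bar), for PD-L1 low minus unsorted H69M on the left and HLA high minus HLA low H69EZ on the right. The left panel shows the contrast on which the members were chosen, so their median there, 1.66, is not ranked against the other lists; on the right the members' median is -1.02 and that of the XBP1 and ATF6 targets 1.12.

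The sort of H69EZ used none of the 6 libraries named above, although the list was chosen with earlier results of these data known. In HLA high cells 30 of the 34 members were lower than in HLA low cells by edgeR's quasi-likelihood test, 3 were higher and CHAC1 was not called. Among all genes, 40.2% were called lower and 41.1% higher. The median log2 fold change of the members was -1.02, against 0.00 over all genes. With 2 libraries in each fraction the spread was estimated largely across genes, and the largest adjusted p among the members called was 0.000671, for VLDLR. Of the 30, 18 were at least 2-fold lower with libraries apart, a difference seen in 14.9% of all genes.

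ATF4 was at 742 and 723 CPM in the HLA low libraries and at 305 and 291 CPM in the HLA high ones, a fall of 2.46-fold (log2 fold change -1.30 ± 0.06, edgeR adjusted p = 1.26e-97). ATF5 was at 472 and 444 CPM against 45.6 and 44.7 CPM, and ATF3 at 108 in both against 15.1 and 14.0 CPM. DDIT3, CEBPG and CEBPB fell by 1.85, 1.08 and 1.03 on the log2 scale. Of the 7 transcription factors 6 were thus lower in HLA high cells. NUPR1 was the exception, at 7.85 and 6.57 CPM in HLA high against 2.06 and 1.55 CPM in HLA low cells (1.99 ± 0.14, edgeR adjusted p = 4.97e-44).

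TRIB3 fell from 369 and 360.4 to 48.1 and 41.3 CPM, an 8.15-fold difference. DDIT4 and SESN2 fell by 1.18 and 1.26 on the log2 scale. CHAC1, in contrast, was at 13.0 and 12.9 CPM in HLA low and at 14.1 and 11.9 CPM in HLA high cells (0.01 ± 0.09, edgeR adjusted p = 0.896), so that the libraries overlapped. Of the secreted factors, FGF21 fell from 25.0 and 23.9 to 1.14 and 1.30 CPM (20.1-fold), INHBE from 129.5 and 127 to 18.5 and 17.2 CPM, and STC2 from 291 and 302 to 131 and 126 CPM. FGF21, ATF5, TRIB3, ATF3 and INHBE were the members farthest apart in this sort.

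All 6 enzymes of the serine and one-carbon route were lower in HLA high cells, with MTHFD2 falling most (-1.42 ± 0.06) and PSPH least (-0.26 ± 0.07). ASNS was at 519 and 509 CPM in HLA low and at 179 and 179.7 CPM in HLA high cells, 2.87-fold lower. GPT2, PCK2, CTH, CBS and PYCR1 fell by 1.42, 0.84, 1.01, 0.46 and 0.37 on the log2 scale. ALDH18A1 was higher, at 126 CPM in both HLA high libraries against 107 and 104 CPM (edgeR adjusted p = 9.74e-05). Its rise ended when library totals replaced TMM scaling (0.11, adjusted p = 0.0997). Among the transporters SLC3A2 (-1.28 ± 0.06) and SLC6A9 (-1.18 ± 0.09) fell most, XPOT, SLC7A1 and SLC7A5 fell by 0.96, 0.38 and 0.35, and SLC7A11 was higher by 0.30 ± 0.07.

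Between the HLA fractions the same neuroendocrine and mesenchymal lists differed as well. The 12 neuroendocrine markers summed to 3201 to 3269.9 CPM in HLA low and 911 to 948 CPM in HLA high cells. The 12 non-neuroendocrine markers summed to 85.6 CPM in each HLA low library, with CAV2 and MME at 0, and to 3836 to 3949 CPM in HLA high cells. The 6 fibroblast markers summed to 94.0 to 96.9 CPM, with COL3A1 at 0, and to 16312 to 17747 CPM. The 5 endothelial markers in the table went from 1.90 to 1.94 CPM, with KDR and TIE1 at 0, to between 8.57 and 9.75 CPM, and the 8 leukocyte markers from 4.32 to 5.06 CPM to between 5.81 and 6.33 CPM. Mitochondrially encoded genes took 4.90 and 5.16% of counts in HLA low and 2.49 and 2.44% in HLA high libraries. The part of these differences in the members' values was not tested.

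The other lists moved unevenly in this sort, in which 40.2% of all genes were called lower and 41.1% higher. Of the 20 tRNA synthetases 12 fell and 5 rose (median -0.22), among them NARS (-0.52), GARS (-0.84) and EPRS (-0.47) down and LARS (0.26) up. Other ATF4 targets had 10 lower and 7 higher of 19. Of the 10 eIF2 regulators 5 fell and 4 rose: PPP1R15B fell by 0.98 and GCN1L1 rose by 0.55. PPP1R15A fell by 2.55 and EIF2AK4 rose by 1.22, both named after their values were seen. Targets of XBP1 and ATF6 had 16 higher and 2 lower of 20 (median 1.12), with HSP90B1, CALR, CANX and HSPA5 up by 2.10, 1.40, 1.22 and 0.93. Hypoxia genes had 6 higher and 3 lower of 12 (median 0.55), with log2 fold changes from -0.60, that of VEGFA, to 5.66. Heat shock genes had 6 lower and 1 higher of 10.

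A comparison of PD-L1 high H69M cells with H69 likewise had none of those 6 libraries on either side. They did enter its filter, its scaling and its estimate of the spread, so its p-values are not free of them. By the edgeR test 24 of the 34 members were lower in PD-L1 high cells, 5 were higher and 5 were not called, against 39.5% lower and 38.1% higher among all genes. The median was -0.49, so that most differences were small. FGF21 was at 0.245, 0.160 and 0.141 CPM against 0.765, 1.02 and 0.726 CPM (-2.17 ± 0.37, edgeR adjusted p = 1.98e-05). ALDH1L2 (-1.31 ± 0.15), INHBE (-1.21 ± 0.10) and ASNS (-1.10 ± 0.06) were the other members at least 2-fold lower with libraries apart. By that measure 4 of the 34 members were lower and 3 higher, against 12.6% and 19.5% of all genes. Nothing about the list is read from these counts. ATF4 fell by 0.84 and ATF5 by 0.94 on the log2 scale.

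Those higher in PD-L1 high cells than in H69 were NUPR1 (1.67 ± 0.25), VLDLR (1.23 ± 0.07), TRIB3 (1.04 ± 0.08), SLC7A11 (0.49 ± 0.11) and CEBPB (0.43 ± 0.08). TRIB3 was at 58.6, 49.4 and 48.1 CPM against 26.4, 23.3 and 27.0 CPM. PHGDH, SLC7A5, SLC6A9, SESN2 and ALDH18A1 were not called, with log2 fold changes from -0.08 to 0.13. Under some alternatives ALDH18A1 was called higher (0.15, adjusted p = 0.0287 with DESeq2 size factors), SESN2 higher (0.17, adjusted p = 0.0336 with the same factors) and PHGDH lower (-0.17, adjusted p = 0.00975 without PD-L1 high replicate 1). Unsorted H69M, by description, had 8 members at least 2-fold lower than H69 and none higher (all genes: 8.31% and 15.1%), among them SLC3A2 (2.29-fold), PCK2 (2.32-fold) and ATF5 (2.86-fold), with a median of -0.57. In both comparisons the H69 libraries are shared.

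In the mouse lines more members were higher than lower in the cells high in MHC class I. The library EHK_RPP4 was the lowest of the 3 RPP libraries for 25 of 33 members and the highest for 7, with a median ratio of 0.641 to the mean of RPP1 and RPP2. With it, 20 of 33 members were higher in RPP-A than in RPP, 5 were lower and 8 were not called. Among all genes 37.6% were called higher and 40.6% lower. The members' median was 1.09, against -0.04 over all genes. Without EHK_RPP4, 23 were higher and 6 lower (all genes: 5680 and 5821 of 14358). Without both EHK_RPP4 and RPPM3, 24 were higher and 8 lower (all genes: 6192 and 6342 of 14154). With library totals in place of TMM scaling, 18 were higher and 6 lower (all genes: 3962 and 7290 of 14032). Higher genes then made up 35.2% of all calls instead of 48.1%.

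Atf4 was at 193, 331 and 344 CPM in EHK_RPP4, RPP1 and RPP2 and at 583, 588 and 659 CPM in the RPP-A libraries RPPM1 to RPPM3 (1.08 ± 0.22, edgeR adjusted p = 0.00231). Cebpb rose from 23.4 to 26.4 CPM to between 379.8 and 399 CPM, a 15.5-fold difference, and Ddit3 from 21.5 to 27.3 CPM to between 67.6 and 78.3 CPM. Atf3 was lower in RPP-A, at 8.06 to 12.3 CPM, than in RPP1 and RPP2 at 26.5 and 28.7 CPM, and EHK_RPP4 was far above them at 92.4 CPM. Cebpg (-0.49 ± 0.09) and Nupr1 (-0.65 ± 0.21) were lower too. Nupr1 lost its call when RPPM1 (adjusted p = 0.075) or RPPM2 (adjusted p = 0.0627) was left out. Atf5 was not called in the full set (0.02 ± 0.31), but it was called lower without EHK_RPP4 (-0.25, adjusted p = 0.0382) and without EHK_RPP4 and RPPM3 (-0.31, adjusted p = 5.33e-07).

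Of the feedback genes Trib3 (2.10 ± 0.19) and Sesn2 (1.25 ± 0.26) rose. Ddit4 was not called (0.74 ± 0.48, edgeR adjusted p = 0.191), with EHK_RPP4 at 132 CPM above RPP1 and RPP2 at 36.7 and 34.9 CPM and the RPP-A libraries at 108 to 120.2 CPM. Without EHK_RPP4 the Ddit4 difference was 1.71 (adjusted p = 2e-06). Chac1 rose by 0.94 ± 0.37 with an edgeR adjusted p of 0.047, and the call was lost without any 1 of the RPP-A libraries (adjusted p = 0.0731, 0.0838 and 0.131 without RPPM1, RPPM2 and RPPM3) and under library totals (0.187).

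Phgdh was at 4.65, 22.0 and 23.0 CPM in RPP and at 82.3, 81.7 and 61.3 CPM in RPP-A (2.17 ± 0.48). Psat1, Psph and Aldh1l2 rose by 1.08, 1.14 and 1.55 on the log2 scale, and the Psph call was lost under library totals (adjusted p = 0.0737). Mthfd2 was at 142, 217 and 225 CPM against 193 to 199.6 CPM and was not called (0.01 ± 0.17), and without EHK_RPP4 and RPPM3 it was called lower (-0.15, adjusted p = 0.00357). Shmt2 just missed the threshold (0.61 ± 0.25, edgeR adjusted p = 0.0508). It passed with DESeq2 size factors (adjusted p = 0.0435), without the filter (0.0402), by the DESeq2 test (0.0148) and without EHK_RPP4 (0.40, 0.00206), RPP1 (0.0331) or RPP2 (0.0329). The 3 enzymes of serine synthesis were thus called higher in RPP-A with all libraries, while the calls of Shmt2 and Mthfd2 turned on the processing.

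Among the other enzymes Cth rose from 1.55 to 2.77 CPM to between 38.6 and 40.7 CPM, 17.0-fold, the largest rise of the 33 members tested in this comparison. Its neighbour in the cysteine route, Cbs, fell from 4.98 to 5.98 CPM to between 0.976 and 1.06 CPM (5.46-fold). Pck2 (2.78 ± 0.19), Aldh18a1 (1.39 ± 0.23), Pycr1 (1.24 ± 0.26) and Gpt2 (1.09 ± 0.19) rose. Asns was at 181, 353 and 357 CPM in RPP and at 415 to 438 CPM in RPP-A and was not called (0.51 ± 0.25, edgeR adjusted p = 0.0894), though every RPP-A library lay above every RPP library. It was called without EHK_RPP4 (0.30, adjusted p = 0.00866) and by the DESeq2 test (0.52, adjusted p = 0.0407).

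The cystine importer Slc7a11 rose from 8.24, 12.3 and 12.4 CPM to 164, 163 and 91.2 CPM, a 12.6-fold difference. Slc7a5 (1.09 ± 0.19), Slc3a2 (1.38 ± 0.11) and Slc6a9 (1.62 ± 0.33) rose, and Slc7a1 and Xpot were not called, though Xpot was without EHK_RPP4 and RPPM3 (0.31, adjusted p = 2.14e-07). Vldlr rose from 17.3 to 19.8 CPM to between 187 and 195 CPM. Fgf21 fell from 5.41 to 6.52 CPM to between 0.517 and 0.812 CPM (-3.07 ± 0.25, edgeR adjusted p = 1.3e-05), so that it was lower in the line high in MHC class I here as well as in H69EZ. Stc2 overlapped between the lines and was not called (-0.17 ± 0.18, edgeR adjusted p = 0.414). It was called lower with library totals (-0.53, adjusted p = 0.0273), without RPPM3 (-0.38, 0.0292) and without EHK_RPP4 and RPPM3 (-0.25, 0.00663).

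The other lists also differed between RPP-A and RPP, where 37.6% of all genes were called higher and 40.6% lower. Of 20 tRNA synthetases 16 were higher and none was lower (median 0.70), with Aars, Gars, Eprs and Nars up by 0.95, 1.08, 1.03 and 0.82. Of 20 other ATF4 targets 15 were higher and 4 lower (median 1.41), Slc38a2 rising by 1.46 and Grb10 by 3.53. XBP1 and ATF6 targets had 14 higher and 4 lower of 20, with Calr up by 1.87 and Hspa5 by 1.54. The 12 other folate and serine genes went both ways, with 5 higher and 4 lower (median -0.08). Outside the ATF4 response, 7 of 10 heat shock genes were higher and none was lower (median 1.58), and 8 of 10 NRF2 targets tested were higher and 2 lower (median 1.19). Of 10 eIF2 regulators 6 were higher and 1 was lower (median 0.58). All 12 neuroendocrine markers fell, their sum going from 3315 to 4043 CPM to between 159 and 207 CPM. The 12 non-neuroendocrine markers went from 109.6 to 329 CPM to between 7154 and 7657 CPM, with Cav1 at 0 in RPP, and the 6 fibroblast markers from 80.3 to 437 CPM to between 22557 and 30203 CPM, with Lum at 0 in RPP. The 7 leukocyte markers in the table went from 2.28 to 3.19 CPM to between 32.5 and 36.4 CPM, with Ptprc, Cd3e and Cd3d at 0 in RPP-A. The 6 endothelial markers went from 39.6 to 46.9 CPM to between 2.12 and 3.33 CPM, with Cdh5, Tie1 and Cldn5 at 0 in RPP-A. The part of these lists in the members' values was not tested.

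NUPR1 was higher in both human high fractions and lower in RPP-A. The human tables and the mouse table were fitted separately, and the differences between them were not tested.

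**Figure D4:**
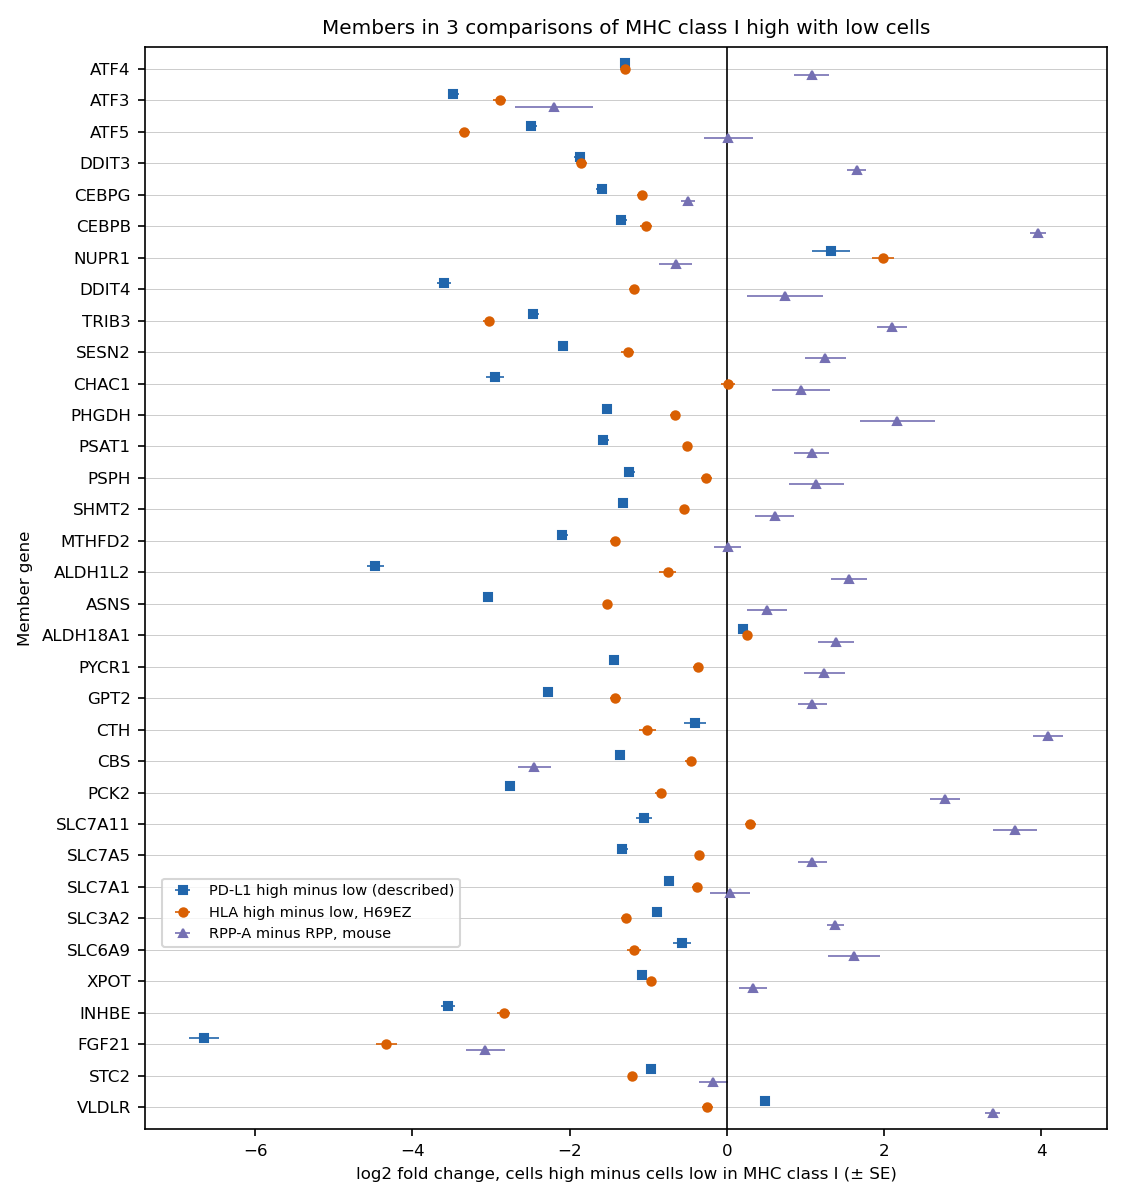
Log2 fold change ± SE of each member, as cells high minus cells low in MHC class I, for PD-L1 high minus PD-L1 low H69M (squares, described without a test), HLA high minus HLA low H69EZ (circles) and mouse RPP-A minus RPP (triangles; INHBE was not tested there). Most squares and circles lie left of 0 and most triangles right of it. FGF21, ATF3, CBS and CEBPG lie left in all 3 comparisons, as does STC2, whose mouse value was not called. NUPR1 lies right in both human ones and left in the mouse.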

How the data were processed

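The authors deposited 3 tables of counts per gene, 1 for H69 and H69M, 1 for H69EZ and 1 for the mouse lines, and the values are whole-number read counts. Reads were aligned with STAR 2.6.1 to hg19 and mm10, per the submitters' processing notes. How reads were counted (program, annotation, strand) is not given in the sources used here. Members that overlap other genes or have near copies are therefore uncertain. Each table was fitted on its own with edgeR 4.0.16 (R 4.3.3, TMM scaling, filterByExpr with a minimum count of 10, glmQLFit and glmQLFTest, all groups of a table sharing 1 estimate of the spread). The tests are two-sided, Benjamini-Hochberg adjusted over all genes tested, with a threshold of 0.05. Comparisons that use H69M or its PD-L1 low fraction are described by the fitted log2 fold change ± SE and by a minimum of 2-fold with libraries that do not overlap. CPM values are the counts relative to TMM-scaled library size.

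The 34 members and the 14 other lists were chosen with earlier results of these data known. All members are accounted for, and of each other list up to 4 of the genes with the highest mean CPM in a table are named, besides CD274, B2M and TAP1 as checks of the sorts. Single markers at 0 are named by that value. The columns RPPM1 to RPPM3 were taken as RPP-A and RPP1, RPP2 and EHK_RPP4 as RPP, by name, with no replicate number. The alternatives were DESeq2 1.42.0 (test and size factors), library totals, no filter, a replicate block, a 1.5-fold minimum and leaving out each library. Added after seeing the data were the mouse table without EHK_RPP4 and RPPM3 and that with RPPM1 and RPPM2 summed. The scripts were tested on simulated counts. Depth sets the precision of low genes, and FGF21 and NUPR1 rest on few counts in H69M.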

Additional observations from a re-analysis of the deposited data

Results flagged for a closer look

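Several members moved in opposite directions in comparisons of cells high with cells low in MHC class I, each by at least 2-fold, past the test's threshold and with libraries that did not overlap. The difference between the comparisons was not tested in any of these cases. Past 2-fold with libraries apart, 14.9% of all genes were lower in the HLA sort and 22.9% higher in the mouse. The share of all genes that moved in opposite directions was not counted. Whether this is particular to the members is thus not known. Between HLA high minus HLA low H69EZ and mouse RPP-A minus RPP, the log2 fold changes were -1.30 and 1.08 for ATF4 and -1.85 and 1.65 for DDIT3. CEBPB had -1.03 and 3.96, and TRIB3 had -3.03 and 2.10. SESN2 had -1.26 and 1.25. The enzymes CTH and GPT2 had -1.01 and 4.09, and -1.42 and 1.09. The transporters SLC3A2 and SLC6A9 had -1.28 and 1.38, and -1.18 and 1.62. With EHK_RPP4 left out of the RPP mean, the mouse log2 ratios were 0.85 for Atf4, 0.97 for Sesn2 and 0.89 for Gpt2. These fell short of 2-fold, and the other mouse values of this paragraph did not.

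ALDH1L2 was lower in PD-L1 high H69M than in H69 (-1.31) and higher in RPP-A than in RPP (1.55). TRIB3 was higher in PD-L1 high H69M than in H69 (1.04) and lower in HLA high than in HLA low H69EZ (-3.03).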

How the results depend on the processing

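No member called by the test changed sign under any alternative run, but values near 0 that were not called did. In the mouse Atf5 (0.02) and Mthfd2 (0.01) were called lower without EHK_RPP4 and RPPM3, at -0.31 and -0.15, and Atf5 also without EHK_RPP4 alone, at -0.25. Described values near 0 changed sign too, such as ALDH18A1 in PD-L1 low cells against H69, from -0.09 to 0.01 with library totals. The mouse count of members called lower was 5 and became 8 without EHK_RPP4 and RPPM3 (all genes: 5701 and 6342). With a 1.5-fold minimum, PD-L1 high against unsorted H69M had 7 members higher and 3 lower in place of 3 and none, and unsorted H69M against H69 had 16 lower in place of 8. With library totals 2 members of unsorted H69M lay above both fractions in place of 1. Leaving out 1 library at a time gave 5 to 6 members higher and 24 to 25 lower for PD-L1 high H69M against H69, 2 to 3 and 29 to 30 for the HLA sort, and 19 to 23 and 4 to 6 for the mouse. In the HLA sort PSPH (adjusted p = 0.0515 without HLA low replicate 1) and VLDLR (0.0606 without HLA low replicate 2) missed the threshold, as did ALDH18A1 (0.0623 without HLA low replicate 2). Library totals moved the median of all genes by -0.37 in the mouse, -0.15 in the HLA sort and -0.14 between the PD-L1 fractions. The correlations of same-numbered deviations were -0.142, -0.0607 and -0.112 between H69 and PD-L1 high H69M and 0.0379 in the HLA sort. Deviations from the mean of so few libraries are bound to each other. The correlations therefore cannot settle whether same-numbered libraries were paired. With the replicate block, 24 members were lower and 5 higher in the first comparison and 30 lower and 3 higher in the second, the same counts as without it. No paired analysis was possible for the mouse because its columns carry no replicate numbers. With RPPM1 and RPPM2 summed, Chac1 (edgeR adjusted p = 0.072) and Nupr1 (edgeR adjusted p = 0.0699) lost their calls.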
